A study of Drosophila melanogaster with 18 samples.

Results

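In whole third-instar Drosophila melanogaster larvae, 234 of the 1336 peaks of N4-acetylcytidine (ac4C) capture that the authors listed as differing between NAT10 RNAi and control held at least 100 input reads, summed over 3 control and 3 NAT10 RNAi input libraries. These 234 peaks are described here, and the other 1102 listed peaks were below that floor. They lay at 224 distinct positions in 191 genes, and joining overlapping peaks left 197 separate stretches of RNA. Peaks were chosen by measured values: listing had used the immunoprecipitated (IP) and input reads of this same contrast, so the direction of IP/input is a property of the choice, and the reads, ratios and overlaps below are a description with no test. Peaks were divided by that direction: 188 had a lower IP/input in NAT10 RNAi than in control and 46 a higher one.

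The study compared 3 genotypes with 3 biological replicates each, and each replicate gave an input and an IP library, of which 12 libraries from 2 genotypes were used. Control larvae were Dats-GAL4/+, that is, they carried the driver alone (da-GAL4, active in the whole body, with the temperature-sensitive repressor tub-GAL80ts). NAT10 RNAi larvae were Dats-GAL4 > UAS-NAT10-RNAi, the same driver with an RNAi construct against NAT10. The third group, Dats-GAL4 > UAS-NAT10-RNAi Xrp1-RNAi, with constructs against NAT10 and the stress-induced transcription factor Xrp1, enters only the gene-level fit and a side-by-side reading of values. Eggs of all genotypes were collected over 24 h at 18 °C, and first-instar larvae were shifted to 30 °C, where the repressor no longer blocks GAL4. Controls were harvested after 72 h and NAT10 RNAi larvae, whose development was delayed, after 120 h, so genotype and harvest time cannot be told apart. The harvest time of the third group is unknown here. Each sample pooled 40 whole larvae, and in such bulk RNA fewer cells of a type and less RNA per cell cannot be told apart either.

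N4-acetylcytidine is a cytidine that carries an acetyl group on its exocyclic nitrogen. NAT10, named l(1)G0020 in the fly, belongs to the enzyme family that makes it, with ribosomal RNA and some transfer RNAs as the best-known substrates; its presence in messenger RNA is debated. In ac4C-RIP-seq, polyadenylated RNA is broken into pieces, here of about 100 nt, a share (10%) is kept as input, and the rest is captured with an antibody. A peak is a stretch of a transcript with more IP reads than its input would give. The IP/input ratio of a peak can therefore differ between genotypes through its IP reads, through its input reads, or both.

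Input libraries held 17291110 to 19223499 reads in genes in control and 17076581 to 24272099 in NAT10 RNAi. Input reads are given as counted or as RPM, reads per 1000000 reads in genes of the same library. IP reads are given as counted, since the depth of whole IP libraries is unknown here; the IP libraries held 62420 to 71273 reads in listed peaks in control and 60764 to 72218 in NAT10 RNAi. The transcript of NAT10 was at 5.13, 4.97 and 5.46 FPKM (fragments per kilobase of gene, scaled to depth) in control. Libraries labelled NAT10 RNAi had 5.22, 5.93 and 5.76, a log2 change of 0.10 ± 0.06 (SE; limma, adjusted p = 0.166). Lower NAT10 RNA was thus not seen under that label, and no peak of the 234 lay in l(1)G0020, Xrp1 or Irbp18. Of 21 tissue markers, all detected in every library, 13 rose and 7 fell in NAT10 RNAi by the same test. Summed salivary glue markers were at 8855 to 9942 FPKM in control and 397.5 to 411.9 in NAT10 RNAi. Summed muscle markers were at 1036 to 1086 and 2935 to 3034 FPKM, and summed hemocyte markers at 22.0 to 23.5 and 66.5 to 68.2 FPKM. The part that this shift of tissues or stages has in the peak values was not tested.

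Input and IP reads were set side by side in each direction. Among the 188 peaks with lower IP/input, input RPM was higher in NAT10 RNAi by a median log2 change of 1.32 (2.50-fold; interquartile range 0.92 to 1.92), while IP reads had a median log2 change of 0.13 (interquartile range -0.37 to 0.60). Among the 46 peaks with higher IP/input, input RPM was lower, with a median log2 change of -0.98 (interquartile range -1.47 to -0.45), and IP reads again lay near 0, with a median of 0.08 (interquartile range -0.42 to 0.55). The input change was larger in size than the IP change in 195 of the 234 peaks (83.3%), 162 of those with lower and 33 of those with higher IP/input. Over all 1336 listed peaks the count was 1132 (84.7%), so the 234 do not stand apart in this, and with input and IP both scaled by TMM factors over listed peaks it was 152 of the 234. IP reads moved in the direction opposite to the ratio in 100 of the 188 and in 22 of the 46, beside 38.7% of the 1016 listed peaks with lower and 30% of the 320 with higher IP/input.

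**Figure D1:**
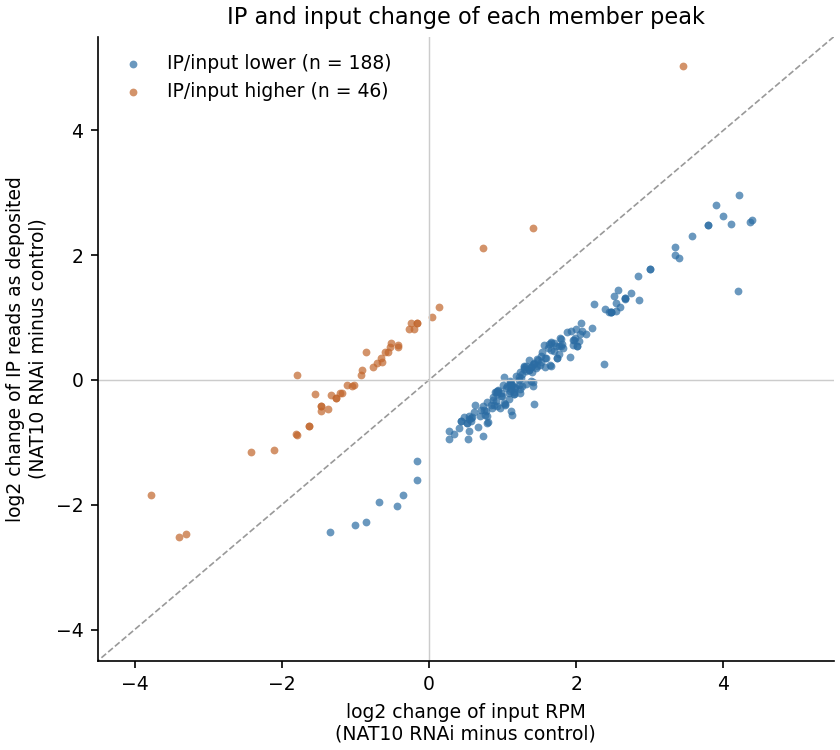
Each point is 1 of the 234 peaks, with the log2 change of its input RPM on the x axis and the log2 change of its IP reads on the y axis (NAT10 RNAi minus control); blue peaks have lower and orange peaks higher IP/input. The peaks run along both sides of the dashed line of equal change, since listing removed those near it, and 180 of the 188 blue peaks lie right of 0 on the input axis.

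Library by library, the median IP/input (with 0.5 reads added to each count) of the 188 peaks was 6.12, 5.39 and 6.37 in the control replicates and 2.45, 2.21 and 2.56 in the NAT10 RNAi replicates. Their median input was 0.796, 0.728 and 0.694 RPM in control and 1.84, 1.90 and 1.99 in NAT10 RNAi. Their median IP reads were 83.5, 71.5 and 71 in control and 82, 102 and 95 in NAT10 RNAi. The ratio and the input medians of the genotypes did not overlap, and the IP medians did.

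For the 46 peaks with higher IP/input, the median ratio was 2.55, 2.02 and 2.42 in control and 4.76, 3.83 and 5.35 in NAT10 RNAi. Median input was 1.84, 1.90 and 1.62 RPM in control and 0.908, 0.968 and 1.03 in NAT10 RNAi, and median IP reads were 94, 85.5 and 96 in control and 87.5, 109.5 and 94.5 in NAT10 RNAi. Here too the medians of ratio and input were apart and those of IP overlapped. In control, the median ratio of these peaks was lower and their median input higher than in the 188. In NAT10 RNAi the order of both was the other way round. As the groups were divided by the direction of the ratio, nothing is read from this order.

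Peak by peak, input RPM of the 3 control libraries was compared with that of the 3 NAT10 RNAi libraries. The groups did not overlap for 169 of the 188 peaks in the higher and for 4 in the lower direction. Among the 828 listed peaks below the floor with lower IP/input, the shares were 79.3% higher and 0.362% lower. Over all 1336 listed peaks, which mix both directions of IP/input, they were 62.4% higher and 13.8% lower, 76.1% in all. For the 46 peaks, input did not overlap for 33 in the lower and for 3 in the higher direction. IP reads did not overlap for 65 of the 188 in the higher and 38 in the lower direction. For the 46 peaks these counts were 16 and 15. Over the listed peaks, again of both directions of IP/input together, the shares were 17.9% higher and 17.5% lower, 35.4% in all. IP/input itself did not overlap in 184 of the 188 (67.4% of all listed peaks were apart in the lower direction) and in 36 of the 46 (15.9% in the higher direction). As listing used both reads, nothing is read from these shares. They also rest on the scaling: with reads scaled by their median ratio over listed peaks, most of which have lower IP/input, input was apart in 134 of the 234 peaks where it had been in 209, and IP/input in 59 where it had been in 220.

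Combining both measures, 82 of the 188 peaks were apart in input and overlapped in IP, beside 58.6% of all 1016 listed peaks with lower IP/input. In 65, input and IP were both higher without overlap (14.5% of the 1016), and in 22 input was higher while IP was lower (8.27%). IP was apart and input overlapped in 12 (10.0%), and in 4 both were lower without overlap (0.689%). Of the 46 peaks, 13 were apart in input and overlapped in IP, beside 36.2% of all 320 listed peaks with higher IP/input. Both were lower in 15 (12.8% of the 320), 5 had lower input with higher IP (6.25%), 8 were apart in IP with overlapping input (20.3%), and 3 were higher in both (2.19%).

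**Figure D2:**
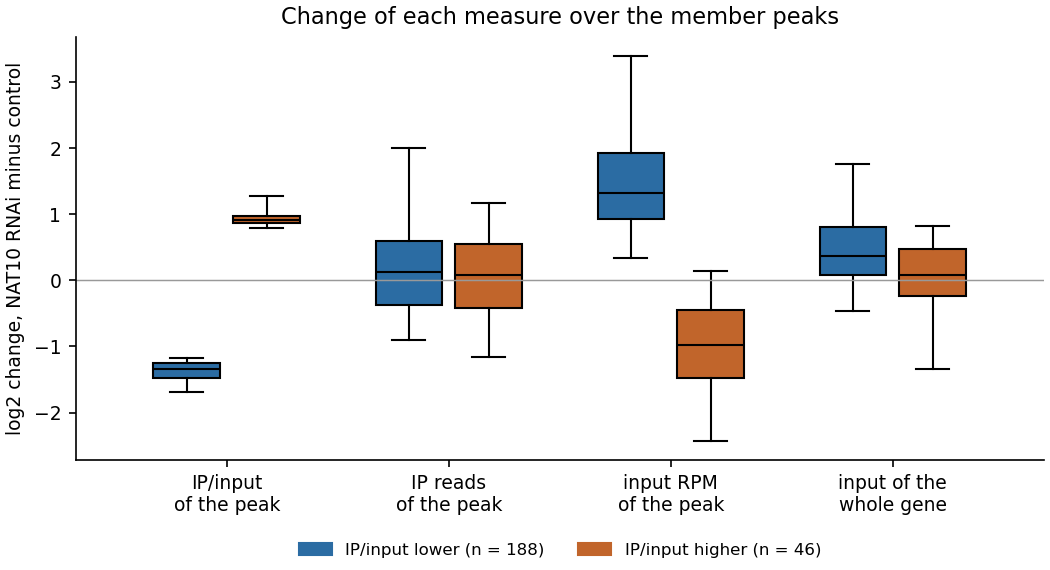
Boxes show the log2 change (NAT10 RNAi minus control) of IP/input, IP reads and input RPM of the peak, and of the input of its whole gene, for 188 peaks with lower (blue) and 46 with higher (orange) IP/input; the line is the median, the box the interquartile range and the whiskers the 5th to 95th percentile. The 2 colours separate in the peak's input, with medians of 1.32 and -0.98, and overlap in IP, with medians of 0.13 and 0.08. Whole-gene changes are of log2(FPKM + 1), so their size is not on the scale of the peak changes.

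A rule on the size of the change, on steady input, on read number and on gene lists named 26 peaks, given here by direction, with coordinates on BDGP6. Among those with lower IP/input, lower IP on overlapping input was found in 3′ untranslated regions (UTRs) of IA-2 and Bacc and in a gut protease. IA-2 encodes a protein related to tyrosine phosphatases on dense-core vesicles. Its peak at 2L:1012635-1012786 (BDGP6, minus strand, 3′ UTR) had 966, 775 and 979 IP reads in control and 290, 275 and 325 in NAT10 RNAi. Its input was 160, 150 and 108 reads in control and 115, 169 and 116 in NAT10 RNAi. IP was lower in every NAT10 RNAi library and input overlapped, which gave an IP/input change of -1.54 ± 0.34 (log2, SE, n = 3 per genotype), while the gene's whole input changed by 0.40.

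A 3′ UTR peak of Bacc (2L:2757048-2757258, plus strand) had 754, 589 and 717 IP reads in control and 183, 212 and 179 in NAT10 RNAi. Input was 58, 89 and 88 reads in control and 58, 89 and 52 in NAT10 RNAi, so that the groups overlapped in input and were far apart in IP. Its IP/input changed by -1.59 ± 0.33, and a second listed peak nested in it (2L:2757078-2757229) by -1.69 ± 0.30. Jon65Ai encodes a serine protease of the midgut, and its coding peak at 3L:6054294-6054443 (minus strand) had 1222, 1122 and 1231 IP reads in control and 440, 517 and 491 in NAT10 RNAi. With 219, 180 and 182 input reads in control and 142, 255 and 172 in NAT10 RNAi, the input overlapped, and IP/input changed by -1.24 ± 0.20. The whole Jon65Ai transcript changed by -0.79 in input, while gut markers as a list were higher, at 335.2 to 353.2 summed FPKM in control and 616.9 to 647.2 in NAT10 RNAi.

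In another set of these peaks, IP and input went opposite ways. The peak in fj, which encodes a Golgi kinase that modifies the cadherins Fat and Dachsous, lay in coding sequence at 2R:18234878-18235058 (plus strand). It had 256, 211 and 232 IP reads in control against 101, 142 and 120 in NAT10 RNAi, and 32, 36 and 23 input reads against 50, 51 and 39. IP was lower and input higher without overlap, and IP/input changed by -1.58 ± 0.29. The 3′ UTR peak of His3.3B, a gene of the replacement histone H3.3, at X:9153649-9153858 (minus strand) had 283, 236 and 208 IP reads in control and 165, 187 and 205 in NAT10 RNAi. Its input exceeded its IP in each NAT10 RNAi library, with 110, 45 and 66 reads in control and 168, 210 and 226 in NAT10 RNAi. IP/input changed by -1.91 ± 0.31, and the gene's input as a whole by -0.29. In tara, which encodes a regulator of the cell cycle and of sleep, the coding peak at 3R:16259249-16259520 (plus strand) had 147, 127 and 104 IP reads against 108, 104 and 111, which overlapped. Its input was 31, 24 and 22 reads in control and 52, 77 and 68 in NAT10 RNAi, with no overlap, and IP/input changed by -1.55 ± 0.19.

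The 2 peaks of the lower group with most input reads were in Lcp2 and Pex13, and their IP reads moved in opposite directions. Lcp2 encodes a larval cuticle protein. Its 5′ UTR peak at 2R:8434545-8434666 (minus strand) had 493, 379 and 369 IP reads and 496, 349 and 396 input reads in control, and 70, 89 and 88 IP reads and 208, 229 and 220 input reads in NAT10 RNAi. Both were lower in NAT10 RNAi, and IP more so, for an IP/input change of -1.42 ± 0.10. IP/input of this peak was 0.994, 1.09 and 0.932 in control and 0.338, 0.390 and 0.401 in NAT10 RNAi, so IP reads were fewer than input reads in each NAT10 RNAi library. These are ratios of counts with unknown IP depth, so 1 is no mark of enrichment. Pex13 encodes a part of the import machinery of peroxisomes. Its coding peak at 2R:13229424-13229845 (minus strand) had 1155, 1057 and 1103 IP reads in control and 1502, 1964 and 1716 in NAT10 RNAi, which is higher in every library. Its input was 92, 81 and 72 reads in control and 296, 456 and 297 in NAT10 RNAi, a 3.91-fold higher input in RPM, and so IP/input was lower (-1.43 ± 0.15) although its IP reads were higher.

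Among the peaks with higher IP/input, those with most reads were in Hsc70Cb and hep, and their IP reads were lower in NAT10 RNAi. Hsc70Cb encodes a cytosolic chaperone of the Hsp110 family. Its 5′ UTR peak at 3L:14037048-14037257 (plus strand) had 990, 1070 and 890 input reads in control and 326, 444 and 378 in NAT10 RNAi. IP reads were 1540, 1355 and 1445 in control and 985, 1120 and 1155 in NAT10 RNAi. Both were lower without overlap, input by 2.77-fold in RPM and IP by 1.33-fold, and IP/input changed by 0.95 ± 0.14. A second 5′ UTR peak of the gene, at 3L:14037405-14037644, had the most input reads of the 234 (1178, 1283 and 1085 in control, 403, 580 and 493 in NAT10 RNAi) and an IP/input change of 0.81 ± 0.15.

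The gene hep encodes the kinase that activates Jun N-terminal kinase. Its 3′ UTR peak at X:13084330-13084570 (minus strand) had 525, 499 and 448 input reads in control and 172, 219 and 180 in NAT10 RNAi, with 2190, 1828 and 2144 IP reads against 1461, 1725 and 1430. Again both were lower without overlap, and IP/input changed by 0.95 ± 0.12. Rtnl1 encodes a reticulon, which shapes the endoplasmic reticulum. Its 3′ UTR peak at 2L:4993405-4993645 (minus strand) had 103, 96 and 61 input reads in control and 23, 38 and 33 in NAT10 RNAi, and 283, 261 and 212 IP reads against 194, 247 and 208, so that its input was apart and its IP overlapped. IP/input changed by 1.23 ± 0.17 and the gene's input by -0.01 (limma, adjusted p = 0.904). The 3′ UTR peak of brp, which encodes a scaffold of the presynaptic active zone, at 2R:9540964-9541175 (plus strand) had 73, 57 and 68 input reads against 28, 50 and 24 and 351, 318 and 389 IP reads against 326, 305 and 369. Input was apart and IP overlapped, while the whole gene's input rose by 0.51 (limma, adjusted p = 3.18e-07).

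IP was higher in NAT10 RNAi, on overlapping or higher input, in the remaining named peaks of this direction. The 5′ UTR peak of unc-13, which encodes a priming factor of synaptic vesicles, at 4:907476-907725 (minus strand) had 51, 51 and 50 IP reads in control and 205, 238 and 219 in NAT10 RNAi. Its input was 32, 37 and 27 reads in control and 51, 69 and 52 in NAT10 RNAi, and the gene's whole input changed by 1.09. IP/input changed by 1.28 ± 0.15, from 1.58, 1.37 and 1.84 to 3.99, 3.43 and 4.18. This stretch also holds an exon of CR43361 on the other strand, and as the strand setting of the counting is not given, reads of the 2 genes cannot be told apart.

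Xbp1 encodes a transcription factor of the unfolded protein response. Its 3′ UTR peak at 2R:21145630-21145750 (plus strand) had 25, 20 and 20 IP reads in control and 31, 39 and 46 in NAT10 RNAi, on 34, 38 and 36 and then 34, 41 and 23 input reads. IP/input changed by 0.99 ± 0.39, from 0.739, 0.532 and 0.562 in control to 0.913, 0.952 and 1.98 in NAT10 RNAi. As IP depth is unknown, these low ratios of counts are not read against 1. The 3′ UTR peak of shn, which encodes a zinc finger protein of Dpp signalling, at 2R:11216854-11216945 had 21, 31 and 25 IP reads in control and 40, 74 and 64 in NAT10 RNAi, on 15, 17 and 17 and then 13, 31 and 18 input reads. IP was higher in every NAT10 RNAi library and input overlapped, as was also the case for Kap-alpha1, cue, CG42363 and CG15572, with IP/input changes of 1.05 ± 0.43, 0.87 ± 0.29, 0.98 ± 0.26 and 0.92 ± 0.27. The CG42363 peak also holds exon bases of CG42362 on the same strand. An input change under 0.25 in log2 size was found at 7 of the 224 distinct positions, beside 40 of all 1336 listed peaks. As listing used input reads, nothing is read from this count.

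**Figure D3:**
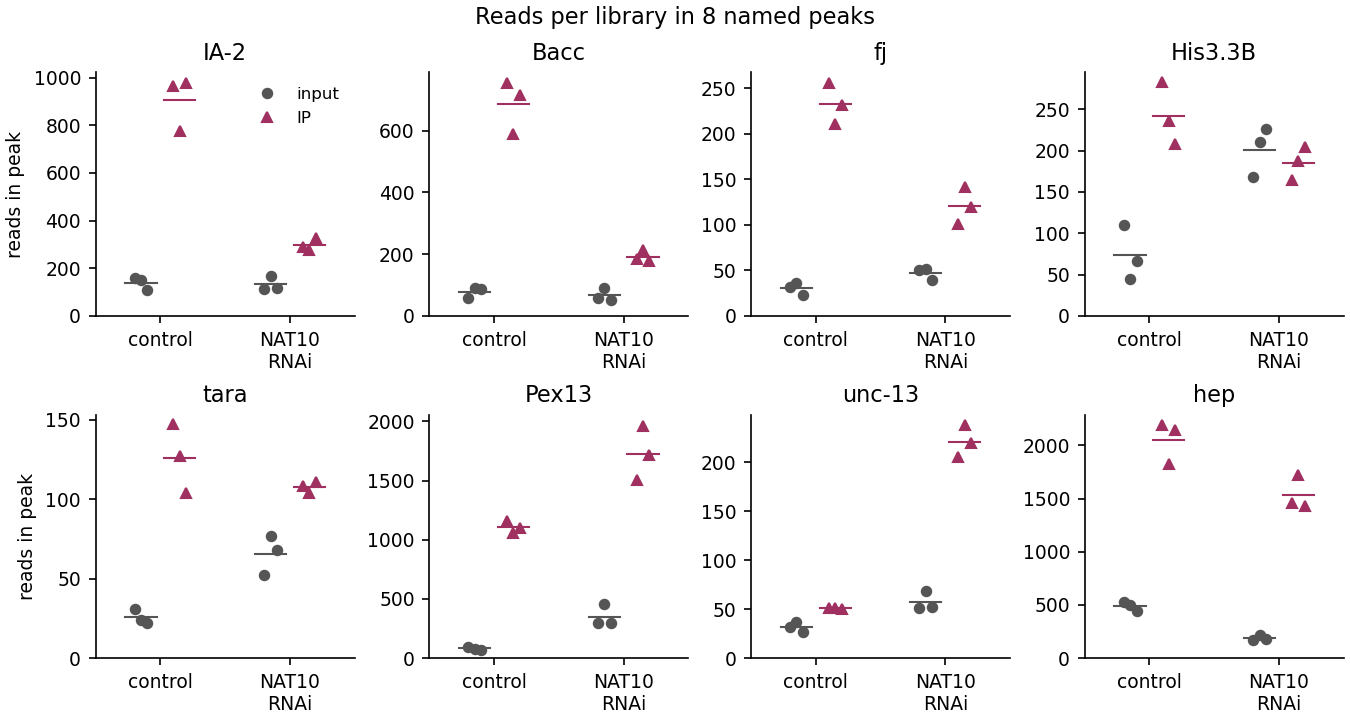
Each panel shows 1 named peak, with input reads (grey circles) and IP reads (red triangles) of the 3 control and 3 NAT10 RNAi libraries, horizontal bars at the group means and a y axis of reads in the peak that starts at 0. IP differs on similar input in IA-2 and Bacc. In log2 change, which the linear axis does not show, input differs more than IP in His3.3B, tara, Pex13 and hep. Both kinds of reads are higher in Pex13 and unc-13.

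Some peaks outside that rule, picked after their values were seen, mark the ends of the range. The lowest IP/input change was in the 3′ UTR of dpr3 (-2.87 ± 0.63), with 4, 0 and 2 input reads in control and 24, 41 and 42 in NAT10 RNAi. Its IP reads, at 28, 11 and 26 in control, were higher too, at 57, 63 and 46. The highest change was in spok (1.84 ± 0.51), which encodes an enzyme of ecdysone synthesis. Its coding peak had 42, 47 and 50 IP reads in control and 11, 9 and 20 in NAT10 RNAi, and its input went from 36, 43 and 28 reads to 2, 3 and 2. Ratios that rest on so few reads in 1 group carry a wide counting error. A peak of the noncoding RNA CR45982 had the largest IP change, from 2, 4 and 3 reads to 91, 121 and 122, beside input of 3, 4 and 2 and then 37, 45 and 37 reads.

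Distinct peak positions were also counted by gene list. Of 16 gene lists, heat shock and detoxification held 4 positions each, ecdysone response and cuticle 2 each, and basement membrane, digestive enzymes and oxidative phosphorylation 1 each. Lists of cytosolic and mitochondrial ribosomal proteins, translation factors, proteasome subunits, glue, fat body, muscle and glycolysis genes, and of the ac4C enzyme and Xrp1, held 0. List sizes and shares over all listed peaks were not set beside these counts, so nothing is read from them, including each 0. The heat shock list was divided, with both Hsc70Cb peaks higher in IP/input and peaks of stv and Hsp60B lower. The co-chaperone gene stv had 55, 50 and 43 IP reads in control and 70, 66 and 83 in NAT10 RNAi, and its input went from 13, 15 and 12 to 45, 71 and 57 reads (IP/input change -1.49 ± 0.25). Hsp60B, of the mitochondrial chaperonin family, had 4, 9 and 6 input reads in control and 24, 31 and 28 in NAT10 RNAi (-1.29 ± 0.51). In stv and Hsp60B, then, input was apart in the higher direction, and in Hsc70Cb in the lower one.

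The 4 detoxification positions were all lower in IP/input, with more of both kinds of reads in NAT10 RNAi. A peak of the glutathione transferase gene GstS1 had 51, 75 and 61 IP reads and 13, 13 and 7 input reads in control, and 100, 92 and 126 IP reads and 29, 64 and 43 input reads in NAT10 RNAi (-1.21 ± 0.50). A peak of the UDP-glycosyltransferase gene Ugt37A2 went from 34, 12 and 13 to 78, 134 and 105 IP reads and from 4, 2 and 0 to 28, 45 and 46 input reads (-1.94 ± 0.74). Peaks of the ecdysone receptor gene EcR and its early target Eip75B had lower IP and more input RPM in the peak. Their IP/input changes were -1.47 ± 0.35 and -1.23 ± 0.25 and their IP changes -0.57 and -0.58. The input of both whole genes fell, by -0.56 and -0.66 (limma, adjusted p = 4.09e-07 and 3.38e-08). ND-18, a subunit gene of respiratory complex I, had an IP/input change of -2.21 ± 0.21 in an intronic peak, where input went from 7, 4 and 5 to 26, 39 and 30 reads and IP from 51, 47 and 55 to 51, 70 and 64.

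The peaks were placed on the annotated transcripts of their genes. Of the 188 peaks with lower IP/input, 155 (82.4%) lay mostly in coding sequence, 10 (5.32%) in 5′ UTR, 9 (4.79%) in 3′ UTR, 8 in introns and 6 in noncoding exons. Of the 46 with higher IP/input, 12 (26.1%) lay in coding sequence, 8 (17.4%) in 5′ UTR, 25 (54.3%) in 3′ UTR and 1 in a noncoding exon. In the full list of control peaks, 68.6% of 31666 lay in coding sequence and 16.4% in 3′ UTR, and in that of NAT10 RNAi 64.3% and 19.6% of 31192. Along the transcript, the final 20% of its length held 45.7% of the higher and 10.1% of the lower peaks, against 19.1% of the control list. No test of these shares was made. Median length was alike, at 181 bases for both directions and 182 for the control list.

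**Figure D4:**
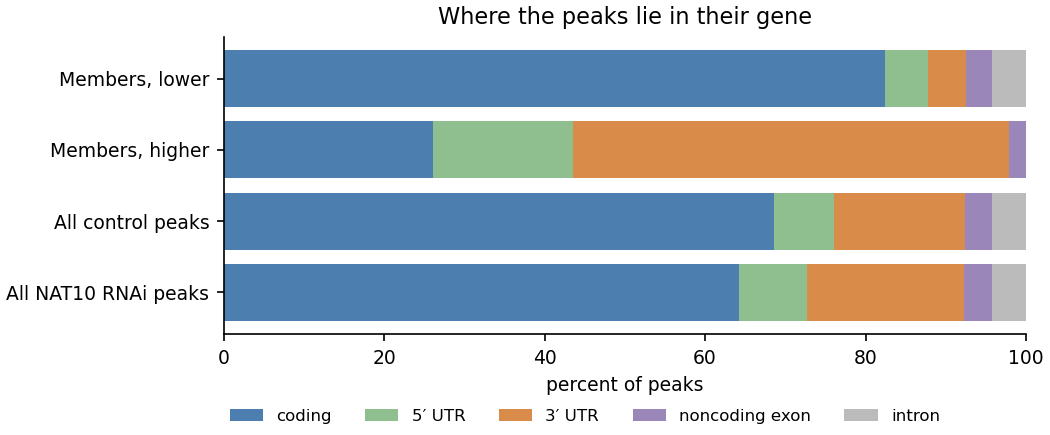
Bars give the percent of peaks by the kind of sequence that holds most of their bases (coding, 5′ UTR, 3′ UTR, noncoding exon, intron), for the 188 peaks with lower and the 46 with higher IP/input and for the full peak lists of control and NAT10 RNAi. Coding sequence takes 82.4% of the lower bar and 26.1% of the higher bar, and 3′ UTR 4.79% and 54.3%.

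Seen from the annotation, 155 of the 167 coding peaks had lower IP/input, with a median log2 change of 1.31 in input RPM and 0.21 in IP. Of the 34 peaks in 3′ UTR, 25 had higher IP/input, with medians over all 34 of -0.92 in input and -0.21 in IP. Higher peaks in 3′ UTR included those of hep, Rtnl1, brp, Xbp1, shn and Kap-alpha1 above, while the lower ones of IA-2, Bacc, His3.3B and dpr3 lay in 3′ UTR as well. Among the listed peaks below the floor of 100 reads, 670 of 798 coding peaks had lower and 91 of 139 in 3′ UTR higher IP/input. There, however, peaks with higher IP/input lay more often in coding sequence (46.7%) than in 3′ UTR (33.2%). Over all listed peaks 36.2% of those with higher IP/input lay in 3′ UTR, and with a minimum of 300 summed input reads 60.9% of those with lower IP/input lay in coding sequence, so these shares move with the floor. Of the 234 peaks, 8 of the lower and 2 of the higher overlapped an exon on the other strand, and 14 and 6 an exon of another gene on the same strand, so their reads may belong to another gene.

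The input of a peak was next set against the input of its own gene. Of the 191 genes that hold peaks, 118 rose and 37 fell in NAT10 RNAi input and 36 did not pass the test (limma on log2(FPKM + 1), Benjamini-Hochberg adjusted p under 0.05). That is 81.2% of them, beside 66.2% of all 11557 genes tested (47.3% rose, 18.9% fell); with libraries rescaled by the median ratio of all genes, 89 rose and 58 fell. The median gene change was 0.30, beside 0.17 over all genes. These genes were reached through peaks listed on IP/input and kept by an input floor in these same libraries. Nothing is therefore read from how their share or median differs from that of all genes. Changes in the input of a peak were larger in size than those of its gene in 177 of the 188 and in 37 of the 46 peaks. Over all listed peaks the shares were 93.4% of the 1016 with lower and 82.5% of the 320 with higher IP/input, so the 234 do not stand apart in this. The median gene change was 0.37 and 0.09 for the 2 directions, beside 1.32 and -0.98 for the peaks themselves.

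Local input density, the input reads per base of a peak divided by those per base of its whole gene in the same library, needs no depth. For the 188 peaks its median was 0.386 in control and 0.686 in NAT10 RNAi. It was higher in NAT10 RNAi in 184 of them, beside 96.0% of all 1016 listed peaks with lower IP/input. In 152 it was higher without overlap of the libraries, beside 66.2% of the 1016. Of the 1285 listed peaks with a density in every library, both directions of IP/input together, 52.5% were apart in the higher and 15.6% in the lower direction, 68% in all. For the 46 peaks the median went from 1.15 in control to 0.619 in NAT10 RNAi. Density was lower in 44 of them, beside 93.1% of all 320 listed peaks with higher IP/input, and in 39 without overlap, beside 61.6% of the 320. The 1016 and the 320 include listed peaks without a density in every library. Peaks and genes may have been counted by different rules, so a density is compared between genotypes and not with 1. The hep peak went from 5.92 to 2.40, that of Hsc70Cb from 4.57 to 2.31, that of tara from 0.433 to 1.09 and that of His3.3B from 0.0389 to 0.128. Input of a peak is part of the ratio used for listing, so these densities are again a description. Densities of peaks in genes with several transcript forms depend on which form is made, and the forms were not counted here.

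**Figure D5:**
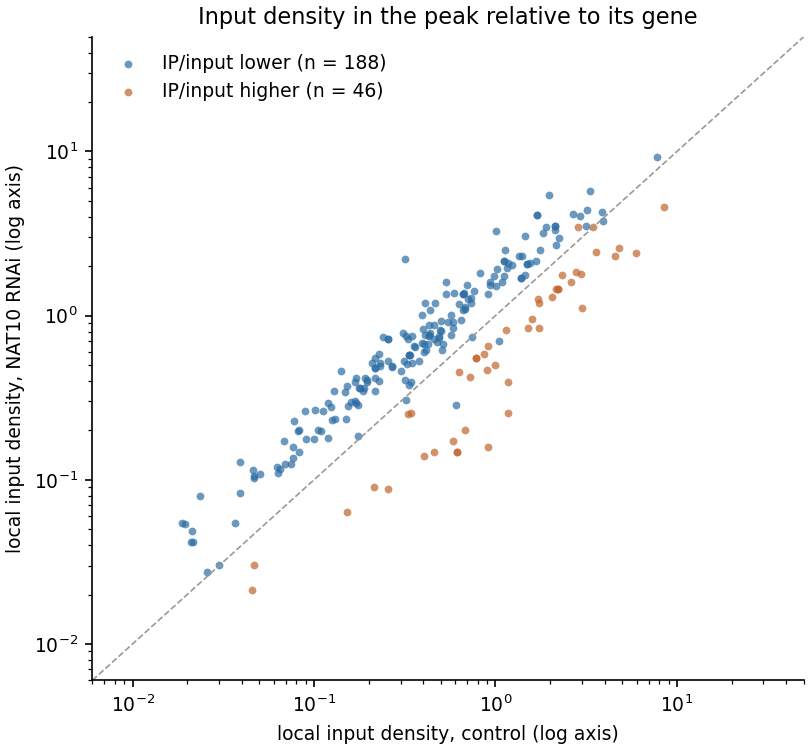
Each point is 1 of the 234 peaks, with the local input density (input per base in the peak over input per base in the gene) in control on the x axis and in NAT10 RNAi on the y axis, both on log axes; the dashed line marks equal density. Of the blue peaks (lower IP/input) 184 of 188 lie above the line, and of the orange peaks (higher IP/input) 44 of 46 lie below it.

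In the authors' table of larvae with both constructs, 30 of the 234 peaks were listed at the same position. Of these, 23 were lower and 7 higher in both tables. Both tables use the same control libraries, so the shared direction is no independent result. The share of all listed peaks found in both tables was not set beside this count, so nothing is read from it. In the Hsc70Cb peak at 3L:14037048-14037257, IP/input changed by 0.95 with NAT10 RNAi and by 1.08 with both constructs, input by -1.47 and -1.45 and IP by -0.41 and -0.40. The hep peak had IP/input changes of 0.95 and 1.05, the longer Bacc peak of -1.59 and -1.83, and the ND-18 peak of -2.21 and -1.94. For the tara peak they were -1.55 and -1.04, and for the His3.3B peak -1.91 and -1.20. Input carried the larger of the 2 changes in both genotypes for Hsc70Cb, hep, ND-18, tara and His3.3B, and IP did so for Bacc.

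At the floor itself, the peaks just inside with 100 summed input reads (Kap-alpha1, CG4329, CG34376 and par-6) had IP/input changes of 1.05, -1.21, -1.22 and -1.40. Those just outside were in Drice with 98 reads and in CR31514, KrT95D and r with 99, and had changes of -1.50, 0.93, -1.35 and -1.14.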

How the data were processed

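Peaks, ac4C-RIP-seq reads and input levels were those that the authors deposited. The build was BDGP6, and the submitters' processing notes mention HOMER 4.9.1, STAR 2.7.6a and bedtools 2.30.0 among the tools, besides deepTools 3.5.1, Subread 1.5.1 with featureCounts, and fastp 0.23.1. Which program called peaks or tested differences, the strand setting and the use of the 12-base molecular identifiers are not stated. The deposited differential table holds, per the file headers, read counts per peak and library, with the authors' log2 change and p-value, which served only to see how peaks were listed. In the authors' deposited table the sign of the change was that of IP/input in 234 of 234 peaks. Each genotype has 1 deposited peak list with a fold enrichment and a p-value from the authors. The deposited gene table holds FPKM per input library. FPKM times gene length gave whole reads (100% of values within 0.1), and their sums the input depth. Because IP libraries have no such table, IP and IP/input are not scaled by depth; the log2 depth difference of the input groups was 0.118, so a ratio change is not exactly the IP change minus the input change.

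Log2 values use a pseudocount of 0.5 reads; changes are differences of group means of log2 values with their SE over 3 replicates per group. Python 3.11.15, pandas 2.3.3 and numpy 2.4.6 were used. Genes (FPKM of at least 1 in at least 3 libraries) were tested with limma 3.58.1 (R 4.3.3, trend and robust) on log2(FPKM + 1), which understates changes of low genes. The test used 9 input libraries and was two-sided, with a Benjamini-Hochberg threshold of 0.05. The step was also run on simulated data with far fewer changed genes than were called here, so that run is no check on these calls. The planned edgeR and DESeq2 tests of peak input were not run as results, since listing had used those reads; edgeR 4.0.16 served only for TMM factors. Features came from the Ensembl annotation of the same assembly (12242 of 12301 genes found by identifier, 90.5% with the same span), by most bases in the order coding, 5′ UTR, 3′ UTR, noncoding exon, intron. Between replicates, chi-square per degree of freedom was 1.41 to 3.95 in input and 1.59 to 1.79 in IP, above sampling noise, so each was kept; replicates are biological per the series' design text. Counting error of a peak follows its reads, and with unknown use of identifiers covers counting only. Another 12 columns of per-library values were not used. The 26 named peaks are the 6 of largest IP/input change in each direction with 20 or more reads in every input library and no overlap, up to 5 per direction of largest IP change with an input change under 0.25, the 5 with most input reads, and up to 3 of each gene list with 3 or more; peaks of smaller lists were named after their values were seen. The 234 peaks and all lists were chosen with earlier results of these data known.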

Additional observations from a re-analysis of the deposited data

How the results depend on the processing

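Of 93 values under other settings, 77 kept within the replicate spread or 1.5 times of the main value, 16 moved and 0 reversed. Counts could only be scored as kept or moved. A reversal could be scored only for the median IP/input changes, over peaks divided by the sign of that change. The 0 is therefore no check on direction. Input did not overlap for 209 of 234 peaks; this was 134 after median-ratio scaling over listed peaks and 134 with TMM factors, 1017 of 1336 with no minimum on input and 29 with a minimum of 300 reads, where fewer peaks enter. IP did not overlap for 134, which became 473 with no minimum and 26 with 300. IP/input did not overlap for 220, which became 59 after median-ratio scaling, 1114 with no minimum and 32 with 300. Median-ratio scaling, which by construction centres listed peaks that are mostly lower, took the median IP/input change from -1.34 to -0.19 for lower and from 0.91 to 2.05 for higher peaks; a pseudocount of 5 reads gave -1.09 for lower peaks. Scaled that way in input alone, the medians were -0.22 and 2.03, with 62 peaks apart in IP/input; in IP alone they were -1.32 and 0.93, with 207 peaks apart. The count of peaks with lower IP/input was 183 to 188 under these scalings, and 188 in full. No minimum gave 1132 peaks with a larger input than IP change, and scaling both kinds of reads 152 to 181. The scalings of a single kind of reads, and those of the last 2 counts, were chosen after seeing the data. Leaving out each library in turn gave 213 to 216 peaks apart in input, 138 to 160 in IP and 222 to 229 in IP/input. These counts could not fall below the full 209, 134 and 220, since dropping a library cannot make separate groups overlap. They are therefore no check on those counts. The same step gave medians of -1.43 to -1.28 and 0.83 to 1.07 and 149 to 152 called genes (155 in full). It also gave 192 to 201 peaks with a larger input than IP change (195 in full).

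Replicate numbers did not pair the samples (correlations of deviations of same-numbered input libraries -0.0103, 0.00736 and -0.0435). With a replicate block, 155 genes with peaks were called and 7581 of all genes, and 214 peaks changed input in 1 direction in every numbered pair. Every peak apart in input meets that condition by construction, so the 214 could not have been below 209. Counting 1 peak per overlapping set, an alternative chosen after seeing the data, left 163 peaks with the larger change in input. In the shallowest peaks 1 group holds under 10 input reads per library, and IP depth limits statements on overall capture. EdgeR and DESeq2 tests of peak input were not run, for the reason given with the processing.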
